A study of Saccharomyces cerevisiae with 72 samples.

Results

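The regions described here are the parts of the budding yeast genome (Saccharomyces cerevisiae, W303 background) whose replication was least delayed when a phosphatase was depleted and the initiation factor Sld3 was mutated together. Members are 1-kb bins in which the replication time (Trep) of strain D was later than that of strain A by less than 5 minutes. Of the 11260 bins with a Trep in these strains, 775 (6.88%) met this limit, and they fell into 111 stretches of neighbouring bins. Trep is the minute after release at which the S-phase to G1 ratio, averaged over 5 bins and made non-decreasing in time, crossed 1.5. Because the difference between D and A chose the bins, its size in them is a description and supports nothing by itself.

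Cells were held in G1 with alpha factor, given auxin (IAA) with a shift to a higher temperature, and released into medium with IAA. Strain D carried PPH3-AID and sld3-R(2A)-13myc, strain C PPH3-AID and SLD3-13myc, strain B untagged PPH3 with sld3-R(2A)-13myc, and strain A untagged PPH3 with SLD3-13myc. All of them were MATa and shared swe1delta::TRP1, CDC55-AID, the auxin receptor gene osTir1 driven by PGPD1 at his3, and a deletion of the native CSE4 covered by CSE4-HA6 at leu2. Cdc55 was therefore depleted in strain A as well, and no strain stands for cells with intact PP2A-Cdc55. There was 1 library for each of the 4 strains at each of 11 times from 15 to 80 minutes. No difference between strains has a replicate check or a test, and sequencing depth is unknown.

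Replication in yeast starts at licensed origins that fire at characteristic times, and forks then travel outward until they meet forks from neighbouring origins. Along a chromosome, an early point in the timing profile usually lies near an active origin, and a late point lies where converging forks meet on average. Sld3 helps to load Cdc45 onto the Mcm2-7 helicase at licensed origins and is limiting for firing. Pph3 is the catalytic subunit of the phosphatase PP4, and Cdc55 is a regulatory subunit of PP2A. The positions of origins were not annotated here, so early and late points were read from the data. They were taken from the mean Trep of strains B and C, whose libraries the choice of bins did not use.

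The member bins replicated in D at a median of 36.7 minutes (quartiles 30.2 and 41.5), in C at 33.4 minutes (27.5 and 38.2), in B at 36.1 minutes (29.9 and 39.9) and in A at 32.6 minutes (26.4 and 37.7). In the other 10485 bins the medians were 44.6 minutes in D, 36.5 in C, 39.6 in B and 32.8 in A. In the median the member bins were thus close to the rest of the genome in A and earlier than it in D. In A they were more spread out, with an SD over bins of 6.55 minutes against 5.49 minutes in the other bins. The median difference between D and A was 3.93 minutes in the member bins and 11.6 minutes in the other bins. Within the members it ran from -0.48 to 5.00 minutes, with quartiles of 3.18 and 4.53. It was below 3 minutes in 164 bins, below 2 minutes in 46 and below 0 in 2.

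**Figure D1:**
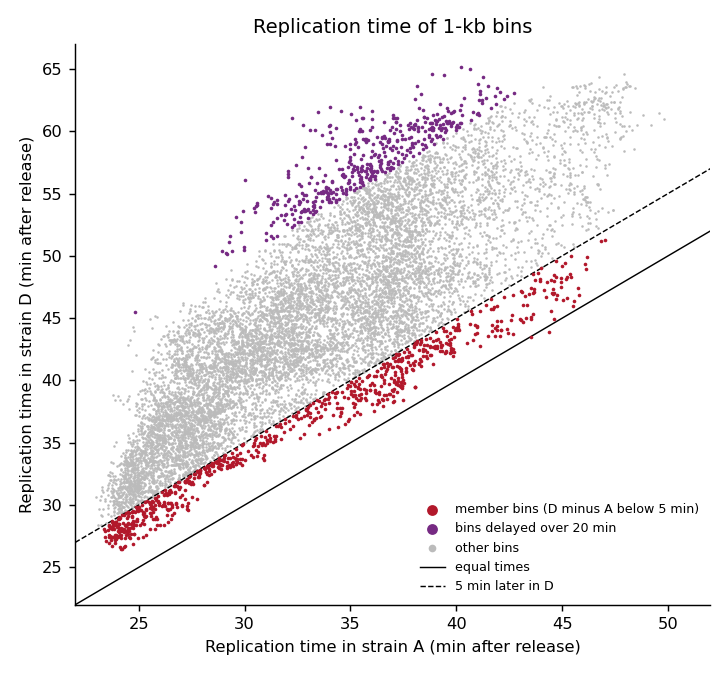
Replication time of each 1-kb bin in strain D (vertical axis, minutes after release) against strain A (horizontal axis), for the 775 member bins, the 461 bins (4.09%) delayed by more than 20 minutes and the other bins. The member bins lie below the dashed line of a 5-minute delay along the whole range of times in A, from 23.4 to 47.0 minutes, and the solid line marks equal times.

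The 5-minute limit does not separate distinct groups of bins. The 5 bins just inside it had differences of 4.988 to 4.999 minutes and the 5 bins just outside 5.004 to 5.019 minutes. Between 4 and 5 minutes lay 360 members, and between 5 and 6 minutes lay 570 bins. Trep computed separately from alternate bins gave the error of a single difference between D and A as 1.38 minutes (SD). Of the 775 bins chosen on odd-numbered bins, 69.0% were also below 5 minutes when measured on even-numbered bins, against 6.596% of all 11113 bins measured so. Of the 733 bins chosen on even-numbered bins, 73.0% were below 5 minutes on odd-numbered bins, against 6.97% of all. The 775 bins chosen on odd-numbered bins were a separate choice from the 775 members, with the same number. For the bins chosen on odd-numbered bins, the median difference on even-numbered bins was 4.24 minutes, against 11.1 minutes over all bins measured so. Odd- and even-numbered bins are neighbours measured in the same libraries, so shares far above those of all bins follow from the design. These shares are no replicate check of membership. An error common to a library would not appear in them or in the SD of 1.38 minutes. The number of members also rests on the authors' scale factor for each library. With the 4 strains given common factors, the 775 member bins had a median difference of 0.06 minutes, against 4.46 minutes over all bins.

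The course of the ratio gives the minutes at which the member bins differed from the other bins. In D the members averaged 1.30, 1.46, 1.64, 1.89 and 2.07 at 30, 35, 40, 45 and 50 minutes, and the other bins 1.27, 1.32, 1.41, 1.56 and 1.72. The SD over member bins in D was 0.270 at 40 minutes. In C the gap was widest at 40 and 45 minutes, with 1.86 and 2.02 in the members and 1.66 and 1.82 elsewhere. In B it was widest at 40 minutes, with 1.76 in the members and 1.56 elsewhere. In A the members averaged 1.48, 1.68 and 1.84 at 30, 35 and 40 minutes, and the other bins 1.44, 1.64 and 1.80. At the minutes given, the members averaged above the other bins in D, C and B. In A they were nearly level with them on average. The choice of bins used D and A, so the gap in D and the level in A are not independent of it.

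**Figure D2:**
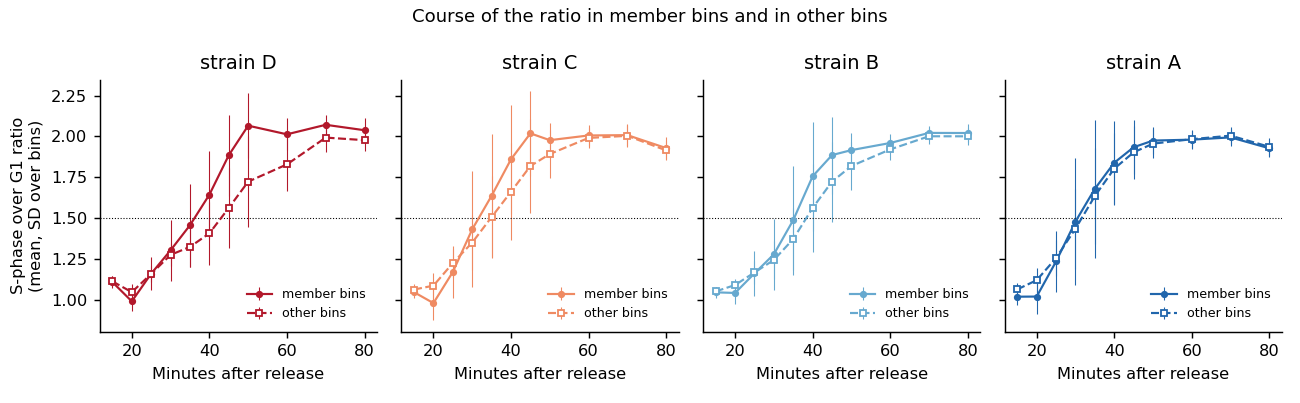
Mean S-phase over G1 ratio (vertical axis, no unit) against minutes after release, in 1 panel per strain, for member bins (filled circles, solid line) and other bins (open squares, dashed line). Bars are the SD over bins, and the dotted line is the ratio of 1.5 at which Trep is read. At 50 minutes the member and other bins average 2.07 and 1.72 in D, and 1.97 and 1.96 in A.

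Before much replication had taken place, the member bins were low in some libraries. Relative to the median of each library, their ratio at 15 minutes was 0.997 in D, 0.988 in C, 0.996 in B and 0.962 in A, and at 20 minutes it was 0.947 in D, 0.899 in C, 0.955 in B and 0.908 in A. At 80 minutes it was 1.03 in D, 1.01 in C, 1.01 in B and 0.997 in A. Every time point of a strain is divided by the same G1 library. When each strain was divided by its own 15-minute profile, the median difference between D and A over the same 775 bins was 4.32 minutes, against 11.04 minutes over all bins. In all, 693 bins were then below 5 minutes, and 540 of them were among the 775 (77.9% of the 693 and 69.7% of the 775). The lower 20-minute ratios were not used as a divisor. Leaving out minute 20 gave 731 bins, all of them among the 775.

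The single changes were also small in these bins. Pph3 depletion with wild-type SLD3 (C minus A) shifted Trep by a median of 1.03 minutes in members and 3.73 minutes in other bins. The sld3-R(2A) allele with Pph3 present (B minus A) shifted it by 3.07 minutes in members and 6.61 minutes in other bins. With Pph3 depleted, the allele (D minus C) added 2.81 minutes in members and 7.69 minutes in others. With the allele present, Pph3 depletion (D minus B) added 0.70 minutes in members and 4.82 minutes in others. These 4 comparisons share strain A or strain D with the choice of bins, so their smaller values in the members are not independent of it.

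Counts of bins for these comparisons use strain A or D too, so higher shares in the members are not independent of the choice. C was earlier than A in 102 of the 775 members (13.2%), against 1.14% of all bins, and was later than A by less than 1 minute or earlier in 377 (48.6%), against 6.79%. D was earlier than B in 153 members (19.7%), against 2.68% of all bins, and earlier than C in 18 members (2.32%), against 0.275%. B was earlier than A in 3 members (0.387%), which were the only such bins of all 11260 (0.0266%). The interaction is the shift seen with the allele when Pph3 was depleted less the shift seen when it was present, and it had a median of -0.25 minutes in the members (quartiles -1.03 and 0.46) and 1.15 minutes in the other bins. It was below 0 in 463 members (59.7%), against 30.8% of all bins.

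B and C did not enter the choice, and the difference between them is the measure closest to independent of it. B was later than C by a median of 2.04 minutes in the members (quartiles 1.398 and 2.74) and by 2.68 minutes in the other bins (1.59 and 3.56), with overlapping quartiles. B was later in 745 members (96.1%), a share near the 92.8% of all bins. Ranked among all bins from the earliest, the median member stood at percentile 19.0 in D, 35.1 in C, 30.3 in B and 49.1 in A. The low percentile in D follows from the limit of 5 minutes, and that in A is not free of it.

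Member bins were found in every part of the timing programme. Bins were split into 10 deciles of 1126 by the mean Trep of B and C. Both strains were later than A in the median, by less in the members, which places members earlier in this ranking. In A the median member stood at percentile 49.1 of all bins (quartiles 12.8 and 78.9). In decile 1, the earliest, 240 bins were members (21.3%). There were 89 in decile 2 (7.90%), 47 and 53 in deciles 3 and 4 (4.17% and 4.71%), and 83 and 98 in deciles 5 and 6 (7.37% and 8.70%). Deciles 7 to 10 held 52, 43, 42 and 28, the last being 2.49% of the latest bins. The share was therefore highest among the earliest bins by B and C. In deciles 2, 5 and 6 it was near the 6.88% of all bins, deciles 5 and 6 covering mean times of 35.9 to 40.0 minutes.

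**Figure D3:**
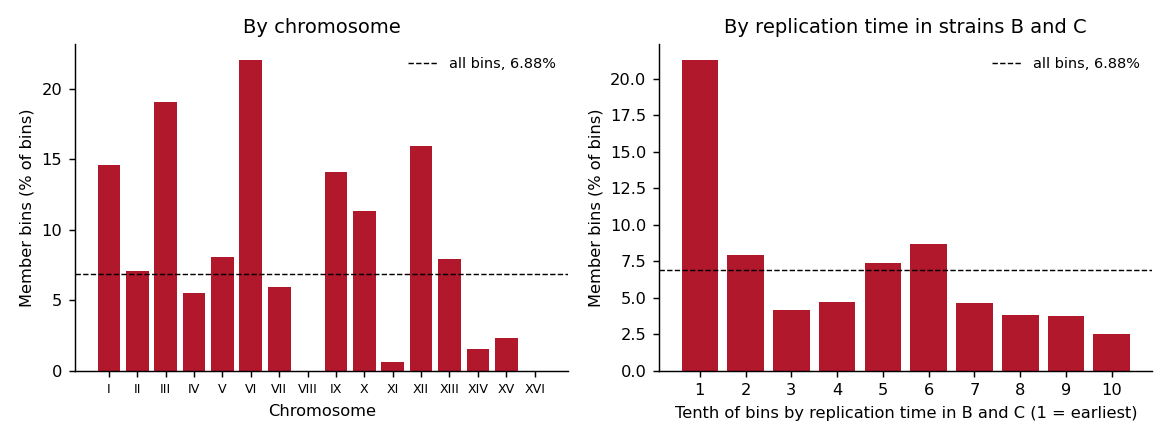
Share of bins that are members (vertical axis, percent) by chromosome (left) and by decile of replication time in strains B and C (right), with the share over all bins, 6.88%, as a dashed line. Chromosomes VI, III and XII stand highest and VIII and XVI have none, and the earliest decile stands at 21.3%.

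The stretches were uneven among the 16 chromosomes. Chromosome XII held 156 member bins, 20.1% of all members and 16.0% of its own bins. The shares were 22.1% of the bins of chromosome VI (55 bins), 19.1% of III (55), 14.6% of I (26), 14.1% of IX (57) and 11.3% of X (78). Chromosomes XI, XIV and XV held 4, 11 and 24 members, and chromosomes VIII and XVI held none. The median difference between D and A over all bins was 12.4 minutes on each of VIII and XVI, against 7.48 minutes on VI and 8.28 minutes on III. Chromosome IV had 79 members and also 136 of the 461 bins delayed by more than 20 minutes.

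The share of members at chromosome ends depended on the scale factors. The outermost 30 kb, counted from where each chromosome's tables begin and stop, held 86 members (11.1%) and 7.58% of all bins. Among as many bins with the smallest difference under common scale factors, the share was 28.5%. Of the 32 ends, 8 had any member. The right end of chromosome IX had members in 26 of 26 bins, the right end of I in 15 of 29, the right end of X in 14 of 30 and the right end of VI in 13 of 30. On chromosome I the listed bins stop at 198000 while the last RefSeq gene ends at 226863, so these bins are not at the end of the chromosome itself. The left end of III had 9, and the right end of XIII, the left end of I and the left end of V had 4, 3 and 2.

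Of the 111 stretches, 30 were single bins, and the median length was 3 bins. A stretch ended at any bin that was not a member or had no value, so small gaps divide longer regions. With gaps of up to 20 kb joined there were 43 regions. On XII, 312001 to 392000 held 73 members in 5 stretches, and on IX, 375001 to 437000 held 57 members in 4 stretches. The 27 stretches of 10 or more bins held 543 members (70.1%), and the 12 longest held 330 (42.6%). The longest covered 45 bins of chromosome III, from 39001 to 84000, an early region holding all or part of 27 protein-coding genes and 1 tRNA gene. Positions are in sacCer3, the build named in the submitters' processing notes, with the first base as position 1. The median Trep of this stretch was 28.1 minutes in D, 26.1 in C, 27.7 in B and 24.6 in A, and the difference between D and A in its bins was 2.19 to 4.89 minutes.

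The mean ratio of the chromosome III stretch in D was 1.08, 0.922, 1.27, 1.63, 1.82, 1.99, 2.16, 2.27, 2.11, 2.07 and 2.07 at 15, 20, 25, 30, 35, 40, 45, 50, 60, 70 and 80 minutes. In A it was 0.954, 0.885, 1.52, 2.07, 2.21, 2.08, 2.07, 2.06, 1.99, 2.02 and 1.95 at the same times. The stretch was near 2 at 30 minutes in A and at 40 minutes in D, although the crossing of 1.5 differed by only 3.53 minutes in the median. In C the ratio was 1.33 at 25 minutes and 2.02 at 30 minutes, and in B it was 1.32 at 25 minutes and 1.63 at 30 minutes. A fully copied bin should stand at 2, and several of these means lie above it.

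The other long early stretches lay on chromosomes IX, VI and II. On IX, 29 bins from 403001 to 432000 had a median Trep of 28.9 minutes in D and 25.2 in A. On VI, 24 bins from 178001 to 202000 had 29.3 minutes in D and 24.8 in A. On II, 20 bins from 239001 to 259000 had 27.4 minutes in D, 25.1 in C, 25.3 in B and 24.1 in A. The II stretch holds HHT1 and HHF1, which encode histones H3 and H4, with differences between D and A of 3.65 and 3.71 minutes. The median of the bin by bin differences between D and B was 1.98 minutes in this stretch and 0.05 to 1.23 minutes in the other 11 of the 12 longest.

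Long stretches also lay in mid and late replicating DNA. The second longest covered 40 bins of chromosome IV, from 940001 to 980000, between SEC26 and EXG2. Its median Trep was 43.4 minutes in D, 41.8 in C, 43.2 in B and 41.1 in A. In A its bins ran from 31.1 to 45.2 minutes and in D from 35.2 to 47.9 minutes. Its mean ratio at 35, 40, 45 and 50 minutes was 1.22, 1.33, 1.57 and 1.86 in D, and 1.26, 1.50, 1.71 and 1.93 in A. Every bin of the stretch had a later Trep in D than in A, by 1.14 to 4.22 minutes.

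Chromosome XII held 3 of the 12 longest stretches. From 178001 to 214000, 36 bins had a median Trep of 37.7 minutes in D, 35.1 in C, 37.9 in B and 34.9 in A, so that C stood close to A and D close to B. From 248001 to 274000, 26 bins had 37.6 minutes in D, 33.9 in C, 36.5 in B and 33.6 in A. From 312001 to 336000, 24 bins had 43.8 minutes in D, 44.1 in C, 44.5 in B and 42.1 in A. This last stretch held the 5 bins with the smallest differences of all, from 316001 to 321000, with Trep between 43.5 and 46.3 minutes in D and between 43.5 and 45.6 minutes in A. The lowest value, -0.48 minutes in the bin at 319001 to 320000, is within the error of a single bin. A neighbouring stretch from 337001 to 352000 holds CDC45, which encodes a helicase subunit that Sld3 helps to recruit, at 35.5 minutes in D and 30.98 in A.

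On chromosome X, 27 bins from 484001 to 511000 had a median Trep of 41.9 minutes in D, 38.5 in C, 41.4 in B and 38.6 in A. A second stretch there, 20 bins from 566001 to 586000 between TOR1 and TMH11, had 37.5 minutes in D, 35.1 in C, 37.1 in B and 35.2 in A. Its mean ratio in D was 1.07, 1.30, 1.68, 2.00 and 2.18 at 30, 35, 40, 45 and 50 minutes. In A it was 1.03, 1.48, 1.87, 1.99 and 2.00 at the same times. In this stretch D and A had similar means at 45 minutes, and D stood above A at 50 minutes. On VII, 20 bins from 851001 to 871000 had 33.5 minutes in D and 29.7 in A, and on XIII, 19 bins from 210001 to 229000 had 40.0 minutes in D and 36.6 in A.

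**Figure D4:**
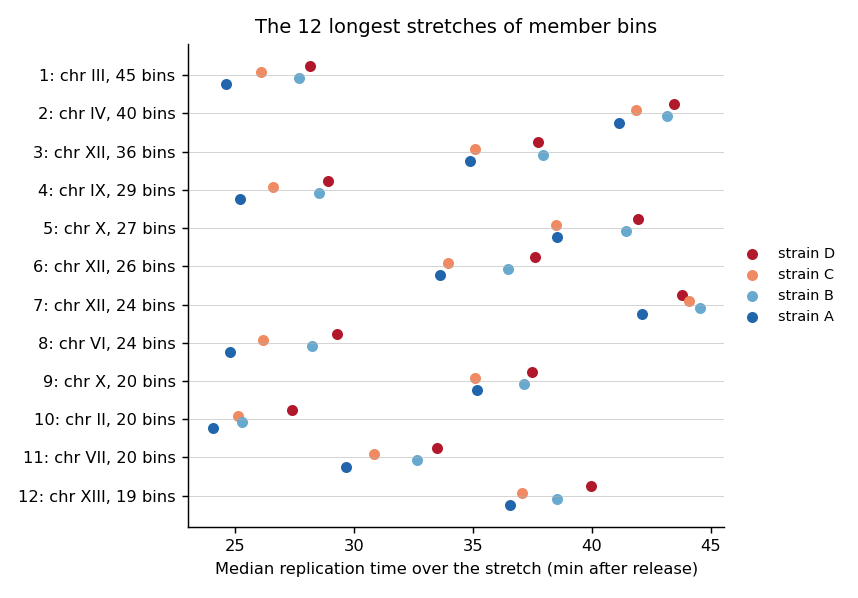
Median replication time (horizontal axis, minutes after release) of the 12 longest stretches of member bins, longest at the top, with 1 point per strain in the order D, C, B and A. In 10 of the 12 stretches the order from early to late was A, C, B, and the median of the D minus B differences was below 1 minute in 10.

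Members lay more often near late points of the profile than near early ones. Late points are bins with the highest mean Trep of B and C within 10 kb on each side, and early points those with the lowest, 175 and 190 bins in all. Within 5 kb of a late point lay 197 members (25.4%), against 16.8% of all bins. Within 5 kb of an early point lay 79 members (10.2%), against 18.0% of all bins. In the bins delayed by more than 20 minutes the shares were 8.68% near late points and 42.7% near early points. Neighbouring bins share data through the 5-bin mean, and these shares were not tested.

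The 8 early points inside the members were among the earliest of the genome. Their median Trep was 28.1 minutes in D, 25.5 in C, 25.5 in B and 23.9 in A, and in A they ran only from 23.4 to 24.7 minutes. The 190 early points together had medians of 42.6 minutes in D and 27.2 in A. The 18 late points inside the members had a median Trep of 39.7 minutes in D, 37.4 in C, 39.6 in B and 37.2 in A. They are late only relative to the bins within 10 kb. In A they ran from 23.7 to 47.0 minutes, so some lie in early DNA. The 175 late points together had 47.9 minutes in D and 37.3 in A. In A the quartiles were 29.7 and 39.9 minutes for the late points of the members, and 32.8 and 40.5 minutes for all late points.

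**Figure D5:**
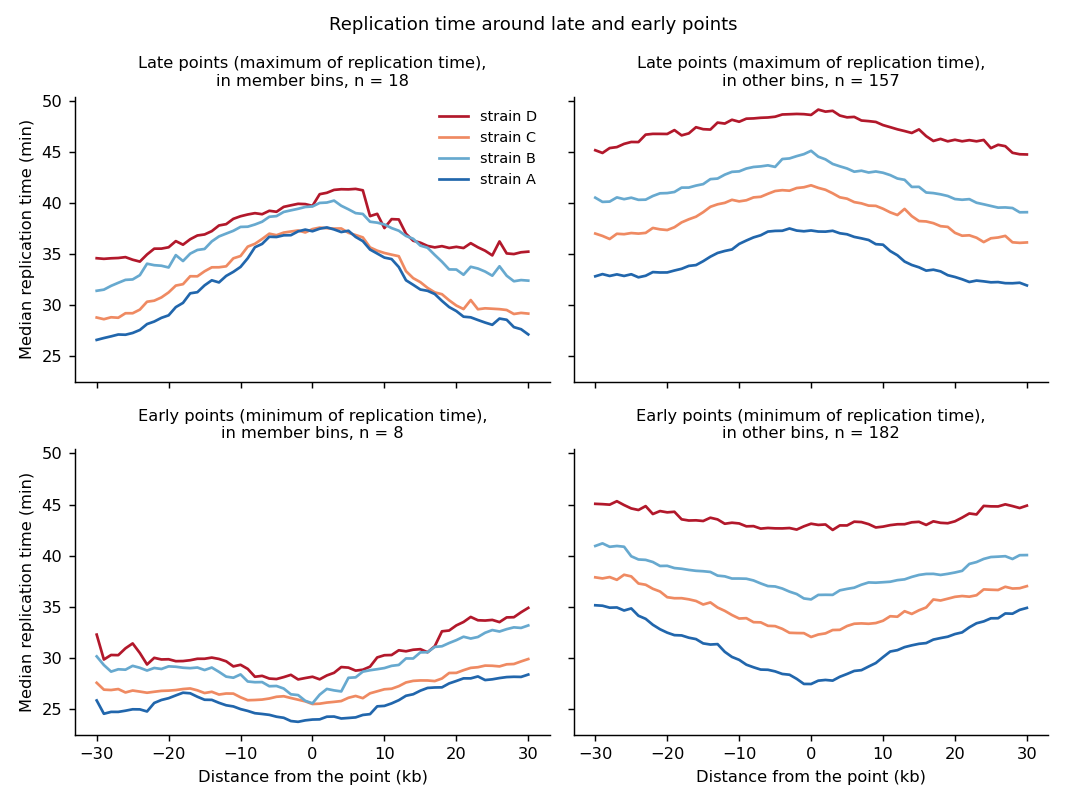
Median replication time (vertical axis, minutes after release) against distance in kb from late points (top) and early points (bottom), inside member bins (left) and in other bins (right), for strains D, C, B and A. At the late points inside members D stands at 39.7, C at 37.4, B at 39.6 and A at 37.2 minutes, whereas 30 kb to the left D stands at 34.6, C at 28.8, B at 31.4 and A at 26.6 minutes.

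The late points of the members can be set beside the early points on either side, as a description. The limit holds the difference between D and A below 5 minutes at the late points and not at most of their flanks, so a smaller delay and a lower height in D follow from the choice of bins. The points were picked on B and C, which favours greater heights in those strains. For 16 of the 18 late points an early point lay on each side with at most 120 kb between the pair. At these the median difference between D and A was 3.68 minutes at the late point and 7.24 minutes at the mean of its flanking early points. The corresponding values were 1.10 and 2.53 minutes for C minus A, and 3.08 and 4.01 minutes for B minus A. The height of the late point above its flanks was 5.81 minutes in D, 9.79 in C, 9.25 in B and 12.8 in A, in the median. In A the height ran from -0.28 to 18.7 minutes and was below 0 at 2 of the 16. At chromosome X 577001 to 578000 the height was 4.87 minutes in D and 12.7 in A, and at chromosome IV 971001 to 972000 it was 11.1 minutes in D and 18.7 in A.

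Late points outside the members, which the limit did not hold below 5 minutes, also had lower heights in D. The height was lower in D than in A at 14 of the 16 late points in members (87.5%) and at 116 of the 134 others (86.6%). In the others the median height was 3.81 minutes in D and 6.66 in A, and the difference between D and A was 11.6 minutes at the late points and 14.3 minutes at the flanking early points.

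The bins next to the long stretches include members of neighbouring stretches, and their values use the same difference as the choice of bins. Over the edges of the 27 stretches of 10 or more bins, the median difference between D and A was 5.34 minutes at 1 kb outside (45 edges), 6.15 minutes at 10 kb (49 edges, lower quartile 4.97) and 7.15 minutes at 20 kb (51 edges). The median over all bins was 11.1 minutes. C minus A was 1.55 minutes at 1 kb and 2.46 minutes at 20 kb outside, and B minus A was 3.59 and 4.81 minutes. The step across an edge is set by the 5-minute limit itself.

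The share of genes in members was near the share of bins. Of the protein-coding genes with their midpoint in a bin with Trep, 411 of 5702 lay in members (7.21%), and of the tRNA genes 17 of 256 (6.64%), against 6.88% of bins. Of 26 genes for replication initiation factors, CDC45 alone lay in a member bin, and their median difference between D and A was 11.1 minutes. Of the 8 core histone genes, which replicate early, HHT1 and HHF1 were in members, and all 8 had differences of 3.65 to 6.50 minutes. These genes lie in adjacent pairs, and HHT1 and HHF1 are such a pair, so they are not separate loci. In decile 1, the earliest bins by B and C, the median difference was 6.55 minutes and 21.3% were members. Of the 5 genes named in the genotypes that had a Trep, none was in a member bin. PPH3 had the smallest difference among them with 7.05 minutes. TRP1 counts among them only as the marker placed at SWE1, which itself had no Trep.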

How the data were processed

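Replication was measured by sequencing DNA of released cells. The deposited tables give the authors' ratio for 1-kb bins, with the replicating library set over the strain's G1 library, as the names beside each value show. Per the file headers a scale factor, recorded here as a score, goes with each library. How the authors set it is not given in the sources used here. It ran from 1.039 to 2.0, and the mean ratio of a library differed from it by at most 0.00475. The submitters' processing notes name Bowtie2 2.2.6, SAMtools 1.7.2, bedtools 2.26.0 and sacCer3. Read counts are not listed, so depth is unknown. Bin noise (SD of steps from bin to bin divided by the square root of 2, relative to each library's median) was 0.0430 to 0.0708.

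The 11277 bins listed in all 44 tables were averaged over 5 bins (3 or more present) and made monotone by isotonic regression, and Trep was interpolated linearly at 1.5 (Python 3.11.15, scipy 1.17.1). Trep was missing in 17 bins. Gene positions came from RefSeq R64, the assembly of sacCer3, which is an S288C genome, while the strains are W303. The code was tested on simulated data. With 1 library per strain and minute no test was made, and members and lists were chosen with earlier results of these data known. Named stretches are the 12 longest, followed by the bins at the limit and the lowest bins. Histone and initiation genes, genes named in the genotypes, the early and late points and chromosome counts were added after the data were seen. Origins, centromeres and sequences were planned but not used here, and the 24 immunoprecipitation samples were not analysed here.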

Additional observations from a re-analysis of the deposited data

How the results depend on the processing

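With no replicates, medians were held against the SD of a single difference between alternate bins, and counts against a factor of 1.5. The share at chromosome ends was held against its 95% Wilson interval, 9.07 to 13.5%. That interval covers counting error only and treats bins as independent. Neighbouring bins share data, and 26 of the 86 members at ends lay at the right end of IX, so it is too narrow. Of 123 values recomputed, 102 stayed within these margins, 20 left them and 1 reversed. The margin for medians is that of single bins and wide for a median over 775, so staying within it shows no stability: C minus A, 1.03 minutes, was 0.62 without minute 25 and 0.30 with common scale factors and as many bins. No paired analysis was possible because each strain and minute had 1 library. The planned share of bins with annotated origins was not run.

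The number of members followed the limit and the scale. It was 415 below 4 minutes, 1345 (in 187 stretches) below 6 minutes, 1427 (193 stretches) at a ratio level of 1.4 and 497 at 1.6, against 775 in 111 stretches. Without a running mean there were 591 stretches. With common scale factors for the 4 strains the median difference between D and A over all bins fell to 4.46 minutes, so that 6424 bins in 577 stretches were below 5 minutes, with B minus A at 1.96 minutes. The same 775 bins then had a median of 0.06 minutes. Taking as many bins with the smallest difference gave 173 stretches, a median of -1.93 minutes, 0.64 for B minus A and 28.5% at ends, and 313 of these bins (40.4%) were among the 775. Common library medians, chosen after the data were seen, gave 7380 bins in 552 stretches, with 1.44 minutes for D minus A and 1.72 for B minus A. Ends of 20 and 40 kb held 7.10% and 14.2% of members, against 5% and 10.4% of all bins. These shares change with the width of the end class itself. The causes of these shifts, beyond what each setting does to the scale or the limit, were not tested.

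Leaving out single minutes from 20 to 70 gave 701 to 960 bins, 104 to 139 stretches, 3.80 to 3.99 minutes for D minus A, 2.59 to 3.19 for B minus A, 0.62 to 1.12 for C minus A and 9.70 to 14.2% at ends. Early and late points defined within 15 kb put 22.8% of members near late points and 9.42% near early points, against 13.8% and 14.9% of all bins.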
